A study of Cucumis sativus with 4 samples.

Results

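Steady genes of the cucumber leaf were chosen by their deposited levels in all 4 RNA-seq libraries of the study. Their mean was at least 50 and under 500 normalised CPM, a read count scaled to a common library size, and the highest of the 4 values was at most 1.2 times the lowest. The rule was met by 410 of the 17585 genes in the table, or 410 of the 4593 genes (8.93%) whose mean lay in that band. The RNA was total RNA of the first true leaf, taken from seedlings of Cucumis sativus inbred line R1461 at an age of 20 days. For 2 libraries the plants carried a CsTCP18a-RNAi construct made from 402 bp of that gene's coding sequence, and for the other 2 the plants were transformed with the empty PFGC-1008 vector, which the labels call wild type. Both constructs were introduced with Agrobacterium strain GV3101. Germination was at 28 °C, and all plants were then kept at 25 °C in a day of 16 h and at 18 °C in a night of 8 h. The labels do not say how many transgenic lines or plants stand behind a library, so the spread between libraries of a group may be technical. The level of the silenced gene and the markers of leaf tissue were not analysed here, because the table carries locus IDs without names and 0 of its 17585 IDs matched the cucumber gene table used here.

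A reference transcript, also called a housekeeping or normalisation gene, is one whose level is taken as constant so that other transcripts can be expressed relative to it. Plant laboratories commonly use genes for actin, tubulin, ubiquitin, elongation factor or a protein phosphatase subunit for this in quantitative PCR. In RNA-seq no single gene has that task: a scaling factor is computed per library instead. The trimmed mean of M-values (TMM) derives this factor from log ratios between libraries, after trimming the most extreme genes, on the assumption that most genes do not differ. CsTCP18a is a cucumber relative of BRANCHED1, a TCP transcription factor that in other plants keeps axillary buds from growing out.

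The gene-assigned reads numbered 24372389 and 27507543 in RNAi replicates 1 and 2 and 27664402 and 18930131 in wild type replicates 1 and 2. The TMM factors carried by the deposited values were 1.1499 and 1.1398 in the RNAi libraries and 0.827 and 0.9225 in the wild type libraries. The highest factor was thus 1.39 times the lowest, a wider range than the factor of 1.2 allowed to a steady gene. All values below are levels in normalised CPM, which is CPM on the TMM-scaled library size, unless plain CPM is named, which is CPM on the library total. CPM carries no correction for transcript length.

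The rule used the values of all 4 libraries, so the levels of the 410 genes are a description and no test stands behind their steadiness. The steadiest gene was Csa1G423230, with 65.2 and 63.7 normalised CPM in RNAi replicates 1 and 2 and 64.5 and 64.7 in wild type replicates 1 and 2. Its highest value was 1.02 times the lowest. The RNAi values lay on either side of both wild type values. Csa5G623500 had 136.2 and 135.4 normalised CPM in RNAi leaves and 132.8 and 132.7 in wild type leaves, a highest-to-lowest ratio of 1.03. Here both RNAi values lay above both wild type values.

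The next steadiest genes covered a similar range of levels. Csa5G155610 had 51.9 and 52.9 normalised CPM in RNAi leaves and 51.4 and 51.6 in wild type leaves. Csa6G507340 had 158.5 and 157.4 in RNAi leaves and 153.7 and 157.1 in wild type leaves. In both genes the RNAi libraries held the higher values, and in both the ratio was 1.03. Csa3G748840 had 126.9 and 127.2 normalised CPM in RNAi leaves and 126.3 and 130.8 in wild type leaves, and the RNAi values lay between the wild type values. Csa3G848140 had 97.8 and 94.0 normalised CPM in RNAi leaves and 96.8 and 96.7 in wild type leaves, with the wild type values between the RNAi values. The ratio was 1.04 in each of these last genes. The geometric mean of the 6 genes was 98.4 and 97.5 normalised CPM in RNAi replicates 1 and 2 and 96.9 and 97.9 in wild type replicates 1 and 2.

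**Figure D1:**
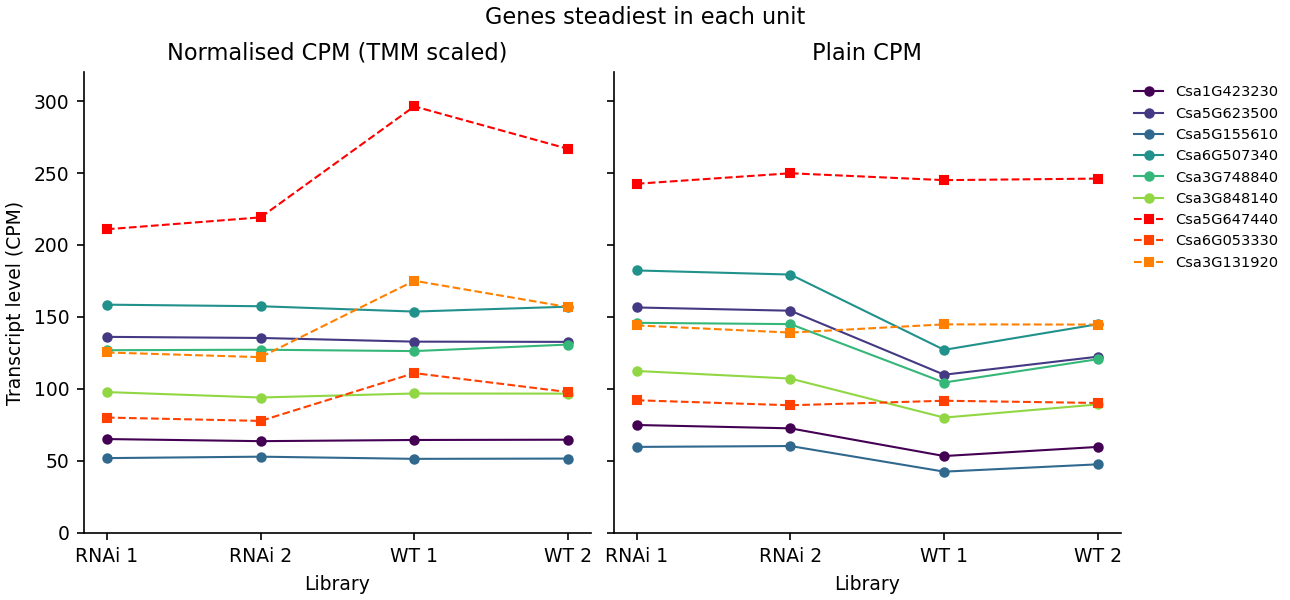
Level of 9 genes in each library, in normalised CPM (left) and plain CPM (right), on axes that start at 0. Circles and solid lines are the 6 steadiest genes in normalised CPM, squares and dashed lines the 3 steadiest in plain CPM that are not among the 410, and lines only join the values of a gene. The circles are level on the left and lower in both wild type libraries on the right. Among the circles, Csa1G423230 had 74.9 and 72.6 plain CPM in RNAi leaves and 53.4 and 59.7 in wild type leaves. The squares are level on the right and higher in both wild type libraries on the left.

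Steady genes were found at each level of the band. There were 267 with a mean of 50 to 100 normalised CPM, which is 10.1% of the 2656 genes at that level. There were 102 between 100 and 200 (7.56% of 1349), 26 between 200 and 300 (7.28% of 357) and 15 between 300 and 500 (6.49% of 231). Their median mean level was 82.1 normalised CPM, against 89.9 over all genes of the band.

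The most abundant was Csa2G297150, with 522.6 and 525.8 normalised CPM in RNAi leaves and 458.9 and 483.5 in wild type leaves. Its RNAi values lay above both wild type values, and its ratio was 1.146. Csa7G432440 had 460.6 and 459.9 normalised CPM in RNAi leaves and 456.2 and 509.1 in wild type leaves, so that the wild type libraries enclosed the RNAi libraries (ratio 1.12). Csa7G450710 had 434.6 and 423.0 in RNAi leaves and 438.1 and 460.7 in wild type leaves (ratio 1.09), with both wild type values above both RNAi values. At the lower end of the band stood Csa7G074830, Csa1G589750 and Csa3G895790, each with a mean of 50.2 normalised CPM and with ratios of 1.18, 1.12 and 1.13. Csa7G074830 had 48.0 and 47.0 normalised CPM in RNAi leaves and 50.2 and 55.5 in wild type leaves.

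Within the list, 8 genes had a highest-to-lowest ratio of at most 1.05 and 82 of at most 1.1. The median ratio was 1.14, against 1.88 over the 4586 genes of the band with a read in every library. The other 7 genes of the band had 0 reads in at least 1 library, and no ratio was formed for them. The limit of 1.2 fell on no gap in the values: 28 genes of the band had a ratio up to 0.01 below the limit, and 51 had one up to 0.01 above it. The genes just inside were Csa3G750370, Csa3G890020 and Csa3G685700, with ratios of 1.1995, 1.1994 and 1.1992. Csa3G750370 had 58.5 and 50.1 normalised CPM in RNAi leaves and 60.1 and 56.6 in wild type leaves. The genes just outside were Csa4G571760, Csa6G525490 and Csa4G193240, with ratios of 1.2001, 1.2001 and 1.2002. Csa4G571760 had 102.0 and 87.3 normalised CPM in RNAi leaves and 94.2 and 85.0 in wild type leaves. In both genes the values of the groups overlapped.

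More genes met the limit within a group than across the groups. A gene within the limit over all 4 libraries is also within it in each pair, so the reverse could not occur. Of the 4593 genes of the band, 4134 (90.0%) had values within a factor of 1.2 in the RNAi pair, 2757 (60.0%) in the wild type pair and 2558 (55.7%) in both pairs. Of these 2558 genes, 410 (16.0%) also stayed within that factor across all 4 libraries. The steady genes themselves had a median ratio of 1.048 within the RNAi pair and 1.061 within the wild type pair. Over the band the corresponding medians were 1.072 in the RNAi pair and 1.147 in the wild type pair. The rule capped the ratio within each pair of the steady genes, so this contrast follows from it.

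No library was the extreme one throughout. Among the 410 genes the highest value was in RNAi replicate 1 for 113, in RNAi replicate 2 for 80, in wild type replicate 1 for 97 and in wild type replicate 2 for 120. The lowest value was in RNAi replicate 1 for 70, in RNAi replicate 2 for 124, in wild type replicate 1 for 112 and in wild type replicate 2 for 104. The group mean was higher in RNAi leaves for 204 genes and in wild type leaves for 206. For 202 genes (49.3%) the groups did not overlap, 98 of them with both RNAi values on top and 104 with both wild type values on top. Among all 17491 tested genes the groups did not overlap for 83.6%, with RNAi on top for 42.8% and wild type on top for 40.8%. The rule favours small group differences, so this contrast follows from it.

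**Figure D2:**
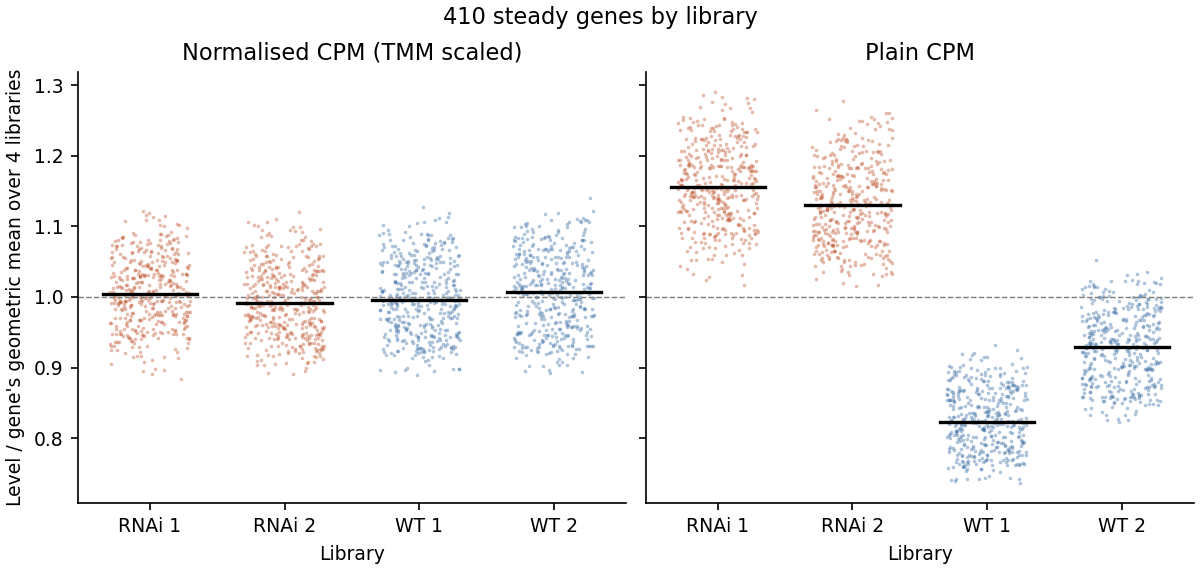
Level of each of the 410 steady genes in each library, divided by its geometric mean over the 4 libraries, in normalised CPM (left) and plain CPM (right). Each point is a gene and each bar the median of the library, which on the left lies between 0.991 and 1.01, and on the right is 1.16 and 1.13 in the RNAi libraries and 0.823 and 0.929 in the wild type libraries.

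The difference between RNAi and wild type leaves was estimated with limma across all 17491 genes that had at least 1 normalised CPM in 2 or more libraries. All 410 steady genes were among them. At a Benjamini-Hochberg adjusted p under 0.05, limma called 0 of the 410 and 60.6% of all tested genes. The calls over all genes were 5427 higher (31%) and 5165 lower (29.5%) in RNAi leaves. With plain CPM limma called 63% of all tested genes, 7534 of them higher and 3477 lower. Without RNAi replicate 1 or RNAi replicate 2, limma called 4096 or 4423 genes in all, and still 0 of the 410. edgeR's quasi-likelihood test and DESeq2 on the recovered reads called 58.8% and 59.3% of the tested genes, and 0 of the 410 each. At an unadjusted p under 0.05, limma, edgeR and DESeq2 also counted 0 of the 410. Since the genes were chosen for small differences in the same values, nothing is read from these zeros.

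The rule itself kept the differences between the groups small, since a ratio of at most 1.2 caps a log2 difference at 0.263. The log2 fold changes of the 410 genes (RNAi over wild type, on the log2(normalised CPM + 1) scale) ran from -0.24 to 0.25 with a median of -0.0017. Their 95% confidence intervals from limma had a median width of 0.284 on either side. For 405 of the 410 the interval lay within 0.5 log2 units of 0, and the farthest bound of any was 0.513. Over all tested genes 7.90% had an interval within 0.5, and over the band 13.1%. The genes were chosen on the same values, so the intervals are centred near 0 by the choice and set no bound on the difference in other leaves.

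The 3 steady genes with the lowest p in limma are given as a description of the list's edge. Csa1G305790 had 64.0 and 64.5 normalised CPM in RNAi leaves and 54.0 and 53.9 in wild type leaves. Its log2 fold change was 0.25 with an adjusted p of 0.0841 in limma. Csa5G021870 had 68.2 and 68.9 normalised CPM in RNAi leaves and 58.0 and 57.4 in wild type leaves, with an adjusted p of 0.0872. Csa3G117930 went the other way, with 180.8 and 182.1 normalised CPM in RNAi leaves and 215.0 and 214.2 in wild type leaves, and an adjusted p of 0.102. In each of these genes the libraries of a group were closer to each other than the groups were, which is the pattern that a low p selects, and the unadjusted p of each was above 0.05 (0.0562, 0.0586 and 0.0707 in limma). Between the groups lay over 50% of the variance of log2 values for 189 of the 410 genes, against 3894 of the 4593 genes of the band. This contrast too follows from the rule, which left out genes with large group differences.

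The spread of the steady genes, which the rule had capped, was set beside the error of read counting. The fewest reads of a steady gene in any library numbered 798, and the median of the fewest reads was 1427. The coefficient of variation (CV) of the 4 values had a median of 5.98% and a highest value of 10.1%, whereas the CV from counting alone had a median of 2.26%. Over the band the CV of the 4 values had a median of 30.9%. The chi-square of the reads per degree of freedom, which counting alone would put near 1, had a median of 7.17 in the steady genes and of 229.8 over the band. In the steady genes it also holds what differed between separate libraries and between the groups. It was under 1 in 12 genes, which are also the only 12 genes of the band under 1, and at least 10 in 141. The lowest value of a band gene outside the list was 7.19. That the genes under 1 are all in the list follows from the rule, which used the same values. Csa1G423230 had a value of 0.170 for this measure, and Csa2G297150, the most abundant, had 51.9. Reads copied by PCR are not independent molecules, so the counting error may be understated.

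**Figure D3:**
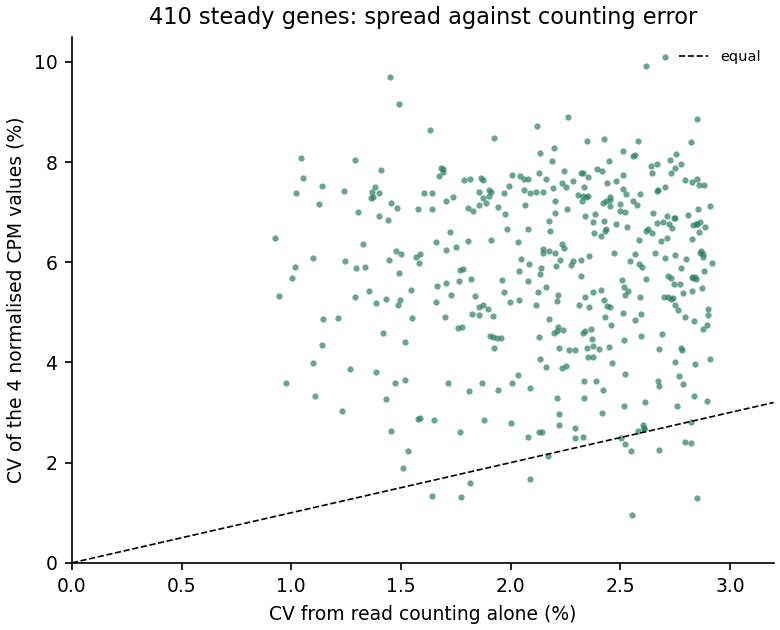
Coefficient of variation of the 4 normalised CPM values of each steady gene (vertical axis, percent) against the coefficient of variation that read counting alone gives (horizontal axis, percent). Each of the 410 points is a gene and the dashed line marks equality. Only 14 genes lie below the line.

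How steady these genes were depended on the TMM scaling. When the factors were undone, so that levels were plain CPM, the highest-to-lowest ratio of the 410 genes had a median of 1.44 and ran from 1.17 to 1.66. Only 3 of the 410 (0.732%) stayed within 1.2. In plain CPM all 410 genes had both RNAi values above both wild type values. This order is fixed by the rule and the TMM factors. The lower RNAi factor, 1.1398, is more than 1.2 times the higher wild type factor, 0.9225. Over all tested genes the groups did not overlap for 84.1%, with RNAi on top for 56.2% and below for 27.9%. The median log2 fold change of the 410 genes became 0.38. Limma called 184 of them higher and 0 lower in plain CPM, where 43.1% of all tested genes were called higher and 19.9% lower. The direction of the calls among the 410 is fixed in the same way. In plain CPM the geometric mean of the 6 steadiest genes was 113.1 and 111.1 in RNAi replicates 1 and 2 and 80.1 and 90.3 in wild type replicates 1 and 2.

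The genes within the limit in both units were Csa6G430710, Csa3G117930 and Csa6G135400. Csa6G430710 had 144.9 and 145.9 normalised CPM in RNAi leaves and 172.3 and 163.8 in wild type leaves, and 166.6 and 166.4 plain CPM in RNAi leaves and 142.5 and 151.1 in wild type leaves. Its groups did not overlap in either unit, and their order turned round: RNAi was below wild type in normalised CPM and above it in plain CPM. The same turn was seen in Csa3G117930, with 207.9 and 207.5 plain CPM in RNAi leaves and 177.8 and 197.6 in wild type leaves. It was seen too in Csa6G135400, with 66.0 and 64.8 normalised CPM in RNAi leaves and 77.0 and 71.4 in wild type leaves, and 75.9 and 73.8 plain CPM in RNAi leaves and 63.7 and 65.9 in wild type leaves. Each of the 3 genes thus met the limit in both units by lying between them, with a group difference of either sign. With these TMM factors any gene within 1.2 in both units must show this turn, so it is no result about the 3 genes.

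Plain CPM gave a list of its own. With the same rule 320 genes were steady in plain CPM, and 3 of them (0.938%) were among the 410. The steadiest outside the 410 was Csa5G647440, with 242.5 and 249.8 plain CPM in RNAi leaves and 245.0 and 246.1 in wild type leaves. In normalised CPM it had 210.9 and 219.2 in RNAi leaves and 296.3 and 266.8 in wild type leaves, a ratio of 1.40. Csa6G053330 and Csa3G131920 came next, with ratios of 1.04 in plain CPM and of 1.43 in normalised CPM for each. In normalised CPM the 320 genes had log2 fold changes from -0.60 to -0.18, all lower in RNAi leaves. That direction is fixed by the limit and the TMM factors.

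**Figure D4:**
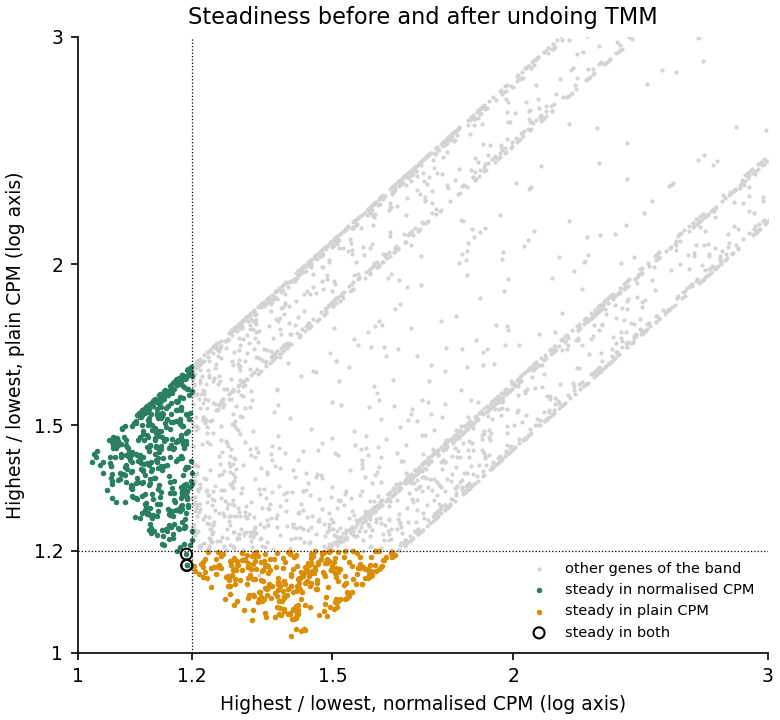
Highest-to-lowest ratio of each gene of the band in normalised CPM (horizontal, log axis) and in plain CPM (vertical, log axis), with dotted lines at the limit of 1.2. Green points are the 410 steady genes, orange points the genes steady in plain CPM, rings the 3 genes steady in both, and grey points other genes of the band. The axes end at 3, which leaves 3142 of the 4593 genes in view, and the green and orange sets meet only at the corner of the dotted lines.

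The ratio of 2 genes within a library is free of any library factor, so it shows what no scaling can change. Csa1G423230 over Csa5G647440 was 0.309 and 0.291 in RNAi replicates 1 and 2 and 0.218 and 0.243 in wild type replicates 1 and 2. Csa5G623500 over Csa6G053330 was 1.70 and 1.74 in RNAi leaves and 1.197 and 1.357 in wild type leaves. Both ratios were higher in both RNAi libraries, so no set of library factors makes both genes of a pair exactly constant over all libraries. Both genes of a pair can be within the limit of 1.2 only if their ratio ranges over at most the square of that limit. The ratio of Csa1G423230 over Csa5G647440 ranged over less, so some set of factors would bring both within it. That of Csa5G623500 over Csa6G053330 ranged over slightly more, so no set would. The geometric mean of the 410 genes over that of the 320 genes was 1.124 and 1.098 in RNAi replicates 1 and 2 and 0.818 and 0.884 in wild type replicates 1 and 2. The choice of the lists by unit sets the direction of this difference.

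The same measure describes how closely a list holds together. The geNorm M value of a gene, used to rank reference genes in quantitative PCR, is the mean over the other genes of a list of the SD of the log2 ratio between them over the libraries, and a lower value means steadier. The 410 genes had a median M of 0.114 among themselves, from 0.083 for Csa1G423230 to 0.162 for Csa1G305790. Csa3G848140 and Csa6G507340 came next to the lowest, each at 0.084. The 320 genes had a median M of 0.113 among themselves. Against the 320 genes the 410 genes had a median M of 0.253. Both lists were chosen with the same limit, each in its own unit, so the like values within the lists and the higher value between them follow from that choice and from the TMM factors.

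Other scalings kept more of the 410 genes than plain CPM did. Median-of-ratios scaling, as in DESeq2, gave 415 steady genes, of which 396 were among the 410. Upper-quartile scaling gave 405, with 234 shared. CPM on a library total without the 100 most abundant genes gave 414, with 132 shared. The number of steady genes hardly changed among these scalings, while the members did. Under TMM, median-of-ratios and upper-quartile scaling together, 222 of the 410 genes stayed within the limit. Only 1 gene, Csa6G135400, met the whole rule under all 5 scalings. This rests on small differences at the limit. Csa6G430710 and Csa3G117930 missed it only under median-of-ratios scaling, at 1.2002 and 1.2005, where Csa6G135400 had 1.197.

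The step between TMM and plain CPM was split into its parts. The factors differed between the groups by 0.39 log2 units, and undoing this part alone left 397 steady genes, 13 of them among the 410. Within the groups the factors of wild type replicates 1 and 2 had a ratio of 0.897 and those of the RNAi replicates one of 1.01. Undoing the within-group part alone left 320 steady genes, 245 of them among the 410. The split was chosen after seeing the data.

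A shift of all RNAi values against all wild type values was then added in steps of 0.05 log2 units, from -1 to 1. The number of steady genes was 410 at no shift and reached its highest value, 430, at a shift of 0.05. It stayed at 402 or more up to a shift of 0.4 and was 276 at -0.4 and 213 at 1. The count thus changed little over the range of the group part of the TMM factors. The full step to plain CPM also undoes the within-group part, and there the count was 320. Of the 410 genes, 280 remained at a shift of 0.1, 168 at 0.2, 12 at 0.4 and 0 at 0.5. The limit of 1.2 is itself 0.263 log2 units, so the turnover of members with the shift is fixed by the rule. These counts do not say which scaling is right.

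**Figure D5:**
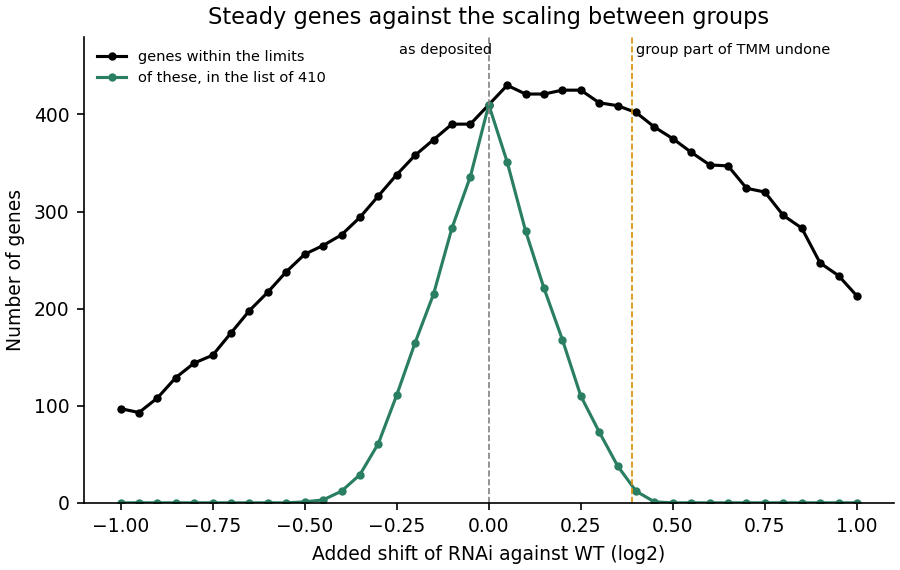
Number of genes that met the rule (black) and how many of these were among the 410 (green), against a shift added to the RNAi values relative to wild type on the log2 scale. Dashed lines mark the values as deposited (0) and the shift at which the group part of the TMM factors is undone (0.39). The black curve is 402 or more from 0 to 0.4, while the green curve falls to 12 at 0.4.

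The share of the library held by the steady genes shows the same dependence. The 410 genes held 5.18% and 5.03% of the gene-assigned reads in RNAi replicates 1 and 2 and 3.69% and 4.15% in wild type replicates 1 and 2. The values are higher in both RNAi libraries, since by construction a gene that is level in normalised CPM has a share of reads in proportion to the TMM factor.

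Of what the rule did not use, the table offers only the IDs. The 410 IDs were spread over all 7 numbered prefixes, from 7.47% of the band genes with prefix Csa1 (48 of 643) to 11.4% of those with prefix Csa5 (68 of 596). The files do not state that a prefix is a chromosome. None of the 13 band genes with an unnumbered prefix was steady, but at the share of 8.93% over the band so few genes say nothing about that prefix. Among the steady genes, 155 had a band gene with the next ID (a number 10 higher or lower) in the table. Of the 173 such neighbours, 18 (10.4%) were steady too, against 9.64% of the 1794 neighbours of all band genes. The neighbours of steady genes had a median highest-to-lowest ratio of 1.74, and those of all band genes one of 1.86. A share of steady neighbours near that of the whole band is not a result about the steady genes.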

How the data were processed

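Leaf RNA was sequenced after standard Illumina library preparation, per the labels' protocols. The submitters' processing notes name TopHat and HTSeq, with no version. What genome build, strand rule and normalisation the authors used is not given in the sources used here. Overlapping genes may therefore share reads if strand was ignored, as may near-identical gene copies. The authors deposited 1 normalised signal per gene and library, which the table's name calls CPM. Each column held whole multiples of 1 step, so that 100% of the values came back as whole reads to within 0.01 read, and the step matched CPM on a library size scaled by the TMM factors that edgeR gives for these reads. Columns were matched to libraries by name.

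The rule for steady genes was applied to the deposited values. The members, lists and tests were chosen with earlier results of these data known. Group differences were fitted with limma 3.58.1 (R 4.3.3), using its trended variance, on log2(value + 1), over genes with at least 1 in at least 2 libraries, with Benjamini-Hochberg adjustment over all genes. edgeR 4.0.16 called 10281 genes on the recovered reads and DESeq2 1.42.0 called 10368. The fits were tested on simulated data in which few genes were changed, as many up as down, without TMM factors. That setting differs from these libraries, so the test does not say how the fits perform on them. The rule for named genes took the 6 members with the lowest ratio, the 3 highest and 3 lowest means, the 3 on either side of the limit, up to 6 within the limit in both units, the 3 lowest p, the 3 steadiest in plain CPM outside the list and the 3 lowest M values. Limma was fitted without a replicate block. Lists planned on gene names (leaf markers, common reference genes) could not be evaluated. Replicate numbers were not taken as pairs.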

Additional observations from a re-analysis of the deposited data

How the results depend on the processing

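The count of 410 steady genes followed the limits: 82 at a ratio of 1.1, 230 midway between 1.1 and 1.2, 790 at 1.3 and 1397 at 1.5, and 828 with a mean from 20 to 500 and 143 from 100 to 500. A pseudocount of 1 gave 428, a CV of at most 8% gave 405, and thinning to the lowest depth gave 412, of which 380 were among the 410. Leaving out a library gave 536 to 732, since a ratio over 3 values is easier to meet (721 without wild type replicate 1 and 732 without wild type replicate 2). Of the 410 genes, limma called 184 with plain CPM and 0 under each other alternative limma run with all libraries. Those other runs all used the TMM-scaled values. Limma was not run under upper-quartile or median-of-ratios scaling, or on totals without the 100 most abundant genes. Over all genes limma called 4096 to 12368 with a library left out and between 9324 and 11011 with all libraries. The median log2 fold change of the 410 genes was 0.38 with plain CPM, 0.12 with upper-quartile scaling and 0.22 on totals without the 100 most abundant genes, and lay between -0.013 and 0.019 without a library. Their median ratio was 1.44 with plain CPM, 1.26 without the 100 most abundant genes and 1.40 with the group part of TMM undone, and 1.11 to 1.12 without a library. Groups without overlap numbered 410 with plain CPM and 350 without the 100 most abundant genes. The replicate block gave 9624 calls over all genes, 0 among the 410. Across genes, replicate 1 minus replicate 2 in one group correlated at -0.09 with that in the other, and no label says that equal numbers share a plant or batch, so the block is not a pairing. With 2 libraries a group and no independent set of leaves, the steadiness of a gene in other leaves was not measured.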
